A study of Mus musculus with 12 samples.

Results

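The 9 genes described here are *Dppa3*, *Prdm1*, *Prdm14*, *Tfap2c*, *Nanos3*, *Dnd1*, *Kit*, *Dazl* and *Ddx4*, genes of primordial germ cells (PGCs), out of 46517 genes in the count files. They were chosen by name, and partly by measured values of these data, since the reason for the choice was that *Dppa3*, unlike the naive pluripotency genes, was low in KO cells at day 0. The 12 libraries of polyadenylated RNA comprised 3 replicates each of WT ESCs, *Meteor* KO ESCs, WT day 3 cells and KO day 3 cells. All came from Eomes EGFP reporter mouse embryonic stem cells (ESCs) of the C57BL/6 strain background, and the KO cells additionally carried the deletion of the *Meteor* enhancer. Day 0 cells were undifferentiated ESCs grown on mouse embryonic fibroblast feeders, and day 3 cells came from embryoid bodies formed in hanging drops under a cardiac differentiation protocol with serum.

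In the paper's methods the deletion was made with a CRISPR nickase, puromycin selection and picking of single clones. The paper repeated its own findings in another deleted clone that was made independently. The genes it measured there by qRT-PCR include *T*, *Nanog* and *Sox2* but none of the members. The sample labels do not give the number of clones behind the KO libraries, so in these libraries the deletion and the history of a clone cannot be told apart. Neither do they say whether replicates were separate cultures, and p-values therefore measure the spread between these samples only. The labels and the paper also name different RNA kits and sequencer models.

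PGCs are the embryonic precursors of eggs and sperm. In the mouse a few epiblast cells acquire this fate in response to BMP and WNT signals, switch on the transcription factors PRDM1, PRDM14 and TFAP2C, regain part of the pluripotency network and erase most of their DNA methylation. They migrate to the gonad with help from the KIT receptor, are kept alive by the RNA-binding proteins NANOS3 and DND1, and later express the germ cell RNA regulators DAZL and DDX4. Several of these genes are also expressed in ESCs, which share much of their transcription factor network with PGCs, so their RNA in ESC cultures does not mark germ cells.

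Promoter sequences upstream of the annotated first exon are shown for *Dazl* and *Ddx4*, the pair of members that were higher in KO cells at day 3, and for *Kit*, which was lower, with every CpG in capitals. They are from RefSeq promoter windows on GRCm38.p6, 5′ to 3′ on the strand of the gene, cut to the part upstream of the gene in GENCODE. For *Ddx4* this leaves out the bases nearest the RefSeq start, so the CpG counts of the printed bases cannot be compared between genes. The full 250 bases upstream of the RefSeq start held 31 CpGs for *Ddx4*, 20 for *Dazl* and 17 or 18 for *Kit*. The *Dazl* bases are chr17:50293637-50293870 on the minus strand (234 bases with 19 CpGs), those of *Ddx4* are chr13:112652476-112652560 on the minus strand (85 bases with 3 CpGs) and those of *Kit* are chr5:75574737-75574915 on the plus strand (179 bases with 10 CpGs).
Dazl: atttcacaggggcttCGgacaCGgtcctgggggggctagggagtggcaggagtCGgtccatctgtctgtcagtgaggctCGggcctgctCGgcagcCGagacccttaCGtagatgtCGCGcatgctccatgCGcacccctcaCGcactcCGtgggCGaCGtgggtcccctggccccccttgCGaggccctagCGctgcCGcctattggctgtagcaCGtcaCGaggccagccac
Ddx4: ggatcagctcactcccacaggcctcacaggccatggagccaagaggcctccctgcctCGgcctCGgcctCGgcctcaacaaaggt
Kit: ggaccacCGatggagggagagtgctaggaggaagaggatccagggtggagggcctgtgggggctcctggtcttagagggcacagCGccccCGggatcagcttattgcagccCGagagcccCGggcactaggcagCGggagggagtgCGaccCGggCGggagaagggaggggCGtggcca

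Of the 9 members, 5 had a promoter in the RefSeq table used here (*Prdm1*, *Nanos3*, *Kit*, *Dazl* and *Ddx4*). Over the whole window of 300 bases, 250 before and 50 after the start, *Ddx4* had 38 CpGs, *Dazl* 28, *Kit* up to 21, *Prdm1* 20 and *Nanos3* 3, beside a median of 8 over 27025 genes. The E-box CACGTG, which reads the same on both strands, was in the *Ddx4* window only, at position -29 from the start. The E2F-type motif GCGGGAA, searched on both strands, was also in the *Ddx4* window only, at -136. Both positions are counted from the RefSeq start and lie outside the printed *Ddx4* bases. The E-box was in 8.09% of all genes' promoters and GCGGGAA in 5.29%, and neither motif contains the other. Among 35 later germline genes (piRNA pathway and meiosis genes, listed with earlier results of these data known), 29 had a promoter, 13 of these (44.8%) held the E-box and 8 (27.6%) held GCGGGAA. A match of letters is a description and shows no binding.

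The KO libraries were first checked at the targeted locus. The annotated *Meteor* locus transcript had no counts in any KO library and 217 and 195 counts summed over the 3 WT libraries at day 0 and day 3. *Upf3b*, an X-linked nonsense-mediated decay factor, was also nearly absent from KO libraries, with 26 counts at day 0 and 1 at day 3 against 2938 and 3231 in WT. ESC markers (6 genes) were detected in all samples, with a summed 2600 to 2910 CPM in WT and 3400 to 3550 in KO at day 0. Levels are given in CPM, the reads of a gene relative to the TMM-scaled library total. Between 17455927 and 23910943 reads per library fell on genes, so 1 CPM stands for about 20 reads. WT day 3 replicate 3 stood apart from the other WT day 3 libraries, with a summed 391 CPM of 7 blood and endothelial progenitor markers against 46.0 and 46.5. WT day 0 replicate 3 stood apart in *T*, with 77.4 CPM against 4.64 and 6.42. In bulk RNA, fewer cells that express a gene and less RNA per cell cannot be told apart, which holds for every level below. In the paper, EGFP from the *Eomes* reporter appeared in WT cells during differentiation but was not detected in KO cells. The paper also reports that KO cells lacked mesoderm marked by PDGFRα and failed to induce mesendoderm genes, *T* among them. The part of this loss of mesendoderm in the lower levels of *T*, *Kit*, *Kitl* and other genes below was not tested.

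*Dppa3* (also called Stella), a maternal and PGC protein that protects DNA from demethylation in the zygote and restrains UHRF1, was the member with the largest difference between KO and WT ESCs. At day 0 its level was 28.0, 18.1 and 13.9 CPM across WT samples and 2.80, 1.27 and 1.28 CPM across KO samples, and at day 3 it was 2.71, 1.35 and 2.05 CPM in WT and 0.700, 0.569 and 0.791 CPM in KO. WT ESCs were far above all other groups, KO ESCs overlapped day 3 WT cells, and day 3 KO cells were below every other sample. At day 0 the mean was 11.4-fold lower by the fit, with a log2 fold change of -3.51 (SE 0.26, 95% interval -4.10 to -2.93, n = 3), a difference that the choice of genes used and that therefore carries no test. Feeder markers (8 genes) summed to 70.9, 254 and 123 CPM in WT and 114, 341 and 206 CPM in KO at that day, ranges that overlapped but were higher in KO in 3 of 3 replicate numbers, and their part in the *Dppa3* value was not tested.

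At day 3, in samples outside the stated reason for the choice, *Dppa3* was again lower in KO, by -1.51 on the log2 scale (SE 0.29, Benjamini-Hochberg adjusted p = 0.00427 by the quasi-likelihood test of edgeR) and in 3 of 3 replicate numbers. The genes were chosen with earlier results of these data known, and all 12 samples share 1 fit, so that is no independent repeat. The day 3 values of *Dppa3* rest on few reads, with 28 to 58 counts per WT library and 10 to 19 per KO library. From day 0 to day 3 it went down by -3.29 (SE 0.26) in WT and by -1.28 (SE 0.30) in KO on the log2 scale, which is given as a description because both share the day 0 samples of the choice. None of the 734 words of 100 bases in its longest transcript occurred in transcripts of other annotated genes.

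**Figure D1:**
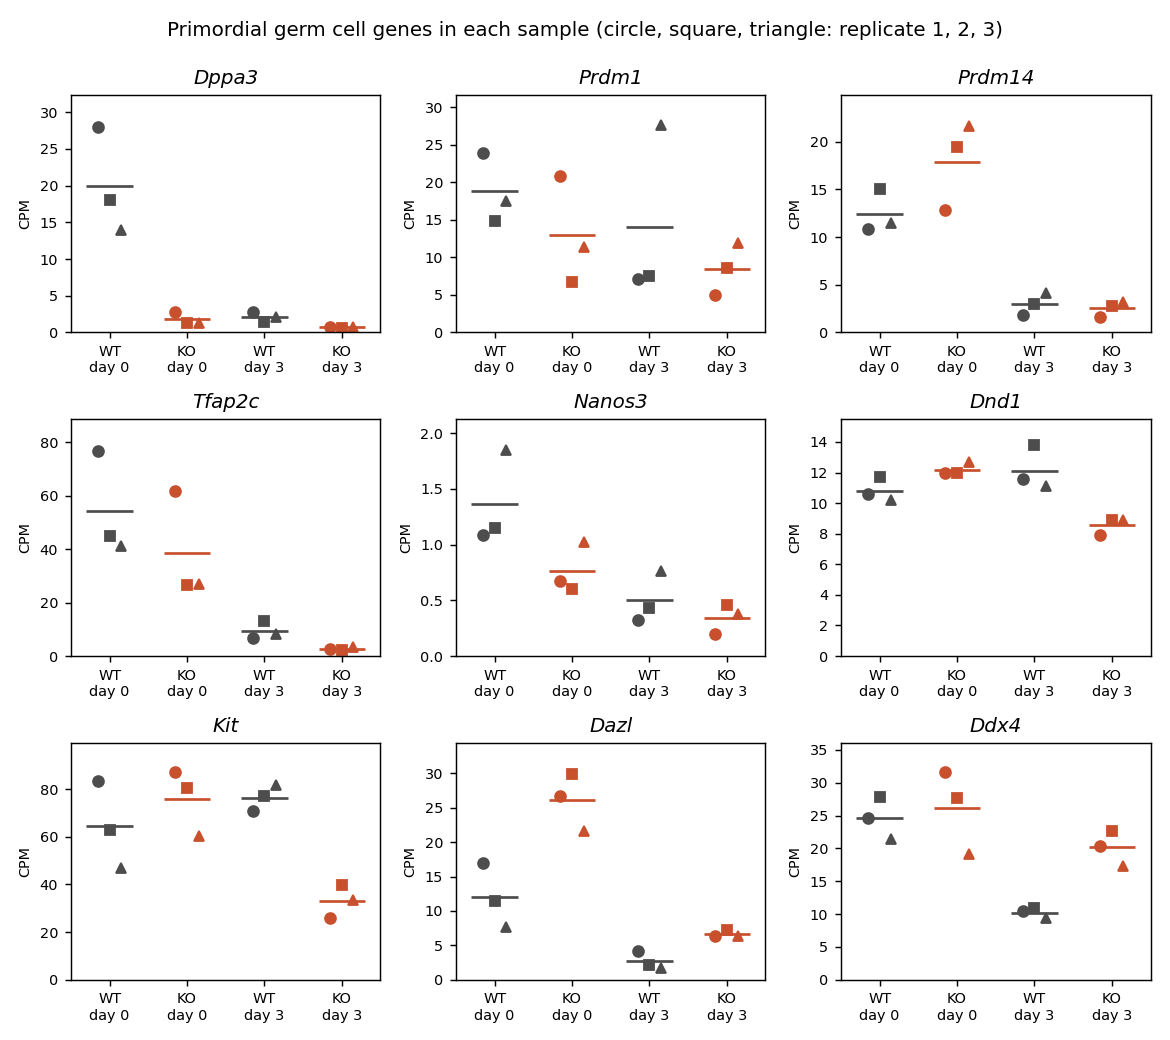
TMM-scaled CPM of the 9 germ cell genes (vertical axes, each from 0) in every sample of the 4 groups (horizontal axis), with WT in grey, KO in red and group means as lines. *Dppa3* is near its floor in all groups but WT day 0 (mean 20.0 CPM), *Kit* is low in day 3 KO cells alone (mean 33.1 CPM), and *Prdm1* has 1 high WT day 3 sample at 27.6 CPM.

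The low *Dppa3* of KO ESCs was set beside genes of the same network and the same place. The day 0 values of the naive pluripotency genes were part of the reason for the choice, so they are given as a description with no test. Among 12 such genes the median log2 fold change of KO over WT at day 0 was 0.71, beside -0.01 over all 15673 tested genes, and 11 were above 0. *Klf5*, a Krüppel-like factor of the naive network, had the largest value of the 12 at 2.23 (SE 0.18), and *Klf2* was the single gene below 0, at -0.08 (SE 0.17).

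*Dppa3* lies at chr6:122626410-122630272 (GRCm38, plus strand) in a cluster of genes active in pluripotent cells. At day 0, where 10.9% of all tested genes were called lower in KO and 9.56% higher at an adjusted p below 0.05, its neighbours *Gdf3*, *Apobec1* and *Slc2a3* were not called. *Gdf3*, a TGF-beta family ligand, had a log2 fold change of -0.12 (SE 0.18), *Apobec1*, a cytidine deaminase, 0.00 (SE 0.25) and the glucose transporter gene *Slc2a3* -0.10 (SE 0.53), and *Nanog*, a neighbour and a naive gene, was at 0.58 (SE 0.27). For *Slc2a3* that interval is wide, since WT replicates ranged from 899 to 2050 CPM. At day 3 *Apobec1* and *Gdf3* were higher in KO by 1.35 (SE 0.27, adjusted p = 0.005) and 1.55 (SE 0.20, adjusted p = 0.000487), both in edgeR, while *Dppa3* was lower. The unrelated developmental pluripotency genes *Dppa2*, *Dppa4* and *Dppa5a* were not called at day 0, with values of 0.14 to 0.41. All 3 were called higher in KO at day 3, by 1.05 to 1.62, where 14.3% of all tested genes were. *Dppa5a* missed the threshold at day 0 with an adjusted p of 0.0564 in edgeR and passed it in 6 of 14 alternatives. *Dppa2* (adjusted p = 0.228 in edgeR) passed it in 2 of 14, the replicate block within days and the fit of the 6 samples compared.

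**Figure D2:**
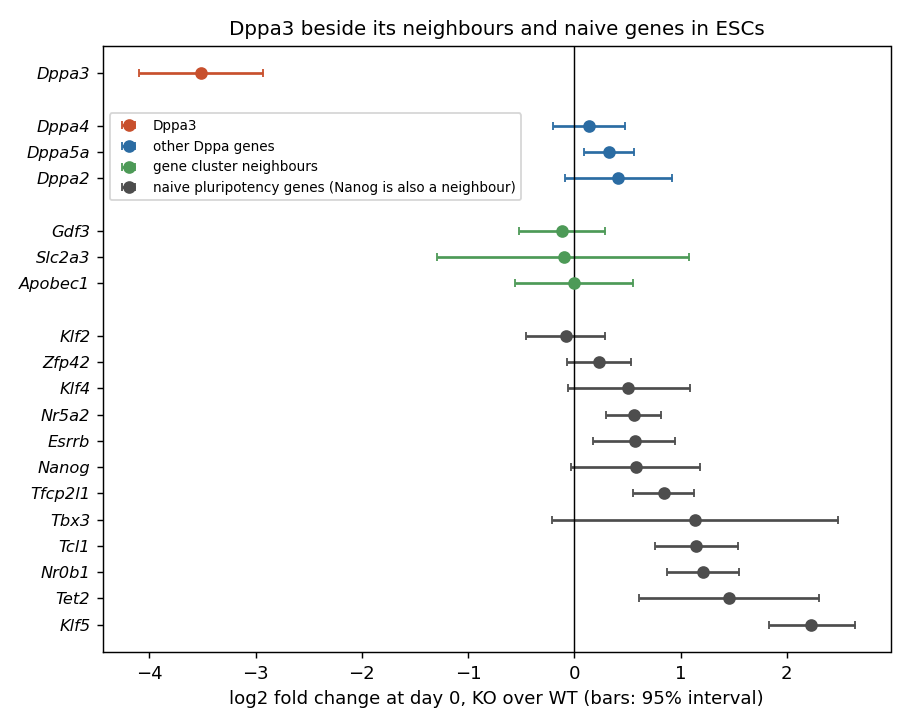
Log2 fold change of KO over WT at day 0 (horizontal axis, bars are 95% intervals from the fit) for *Dppa3*, 3 other *Dppa* genes, 3 neighbours in its gene cluster and 12 naive pluripotency genes (vertical axis). *Dppa3* stands at -3.51, and the lowest of the other genes, *Gdf3*, at -0.12.

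The 3 transcription factors that start the PGC programme did not move as 1 group. *Prdm1* (Blimp1), which represses somatic genes in nascent PGCs, had 23.9, 14.9 and 17.5 CPM in WT and 20.8, 6.72 and 11.4 CPM in KO at day 0, and 7.14, 7.46 and 27.6 CPM in WT and 4.95, 8.64 and 11.9 CPM in KO at day 3. Its groups overlapped at both days. At day 3 its log2 fold change of KO over WT was -0.58 (SE 0.50, 95% interval -1.70 to 0.54, adjusted p = 0.412 in edgeR). It was 0.20 when WT replicate 3, the library with high blood and endothelial markers, was left out. In that library 8 visceral endoderm markers also summed to 167 CPM, against 50.6 and 53.6 CPM in the other WT libraries, and their part in the *Prdm1* value was not tested. Visceral endoderm and endothelial cells are both known to express *Prdm1*.

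*Prdm14*, which keeps ESCs naive and represses DNA methyltransferases, was at 10.8, 15 and 11.5 CPM in WT ESCs and at 12.8, 19.4 and 21.6 CPM in KO ESCs, and fell to 1.82, 2.94 and 4.10 CPM in WT and 1.65, 2.73 and 3.16 CPM in KO by day 3. Day was the larger divide, with every day 0 sample above every day 3 sample. The change from day 0 to day 3 was -2.13 (SE 0.21, adjusted p = 3.07e-05) in WT and -2.84 (SE 0.21, adjusted p = 4.02e-06) in KO on the log2 scale, both in edgeR. At day 3 KO and WT were not separated, with a log2 fold change of -0.22 (SE 0.22, 95% interval -0.70 to 0.27, adjusted p = 0.48 in edgeR). At day 0, where no test was run, it was 0.49 (SE 0.19).

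*Tfap2c* (AP-2 gamma), which acts after PRDM1 in PGCs and also in trophoblast and the naive state, was the factor with a genotype difference. It had 76.9, 45.0 and 41.1 CPM in WT and 61.8, 26.6 and 27.0 CPM in KO at day 0, and 6.95, 13.1 and 8.34 CPM in WT and 2.65, 2.16 and 3.54 CPM in KO at day 3. The genotypes overlapped at day 0 and did not overlap at day 3. There the KO level was 3.4-fold lower, a log2 fold change of -1.77 (SE 0.40, adjusted p = 0.00835 in edgeR), and the call held in all 14 alternatives. Trophoblast markers (7 genes) were low in the same samples, with 2.80 to 8.53 CPM summed in KO and 10.7 to 37.0 CPM in WT. Of the 7, 5 (*Cdx2*, *Elf5*, *Gata3*, *Plac1* and *Tfap2a*) were below 1 CPM in every day 3 KO sample. All of these but *Cdx2* were below 1 CPM in WT day 3 replicates 1 and 2 as well. *Ascl2* went the other way, with means of 4.17 CPM in KO and 3.75 CPM in WT (adjusted p = 0.852 in edgeR). The part of trophoblast markers in the *Tfap2c* value was not tested.

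Of the survival factors, *Nanos3* was low in every group. *Nanos3*, an RNA-binding protein that protects migrating PGCs from cell death, passed the filter of 1 CPM only through the 3 WT day 0 libraries, which had 20, 22 and 35 counts. KO ESCs had 12, 11 and 20 counts, day 3 WT cells 7, 9 and 16, and day 3 KO cells 4, 8 and 9. At day 3 the log2 fold change was -0.55 (SE 0.38, 95% interval -1.40 to 0.30, adjusted p = 0.303 in edgeR).

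*Dnd1*, the dead-end RNA-binding partner of NANOS proteins whose loss causes germ cell tumours in mice, varied little except in day 3 KO cells. Its level was 10.6, 11.7 and 10.2 CPM in WT and 12, 12 and 12.7 CPM in KO at day 0, and 11.6, 13.8 and 11.1 CPM in WT and 7.95, 8.93 and 8.87 CPM in KO at day 3. Day 3 KO cells were the lowest group and overlapped no other. The log2 fold change of KO over WT at day 3 was -0.50 (SE 0.13, adjusted p = 0.0193 in edgeR). The call was lost without WT day 3 replicate 2 (adjusted p = 0.0835), without any 1 of the 3 KO day 3 libraries, and with no filter on low counts (adjusted p = 0.0547), each in edgeR. Of the 1958 words of 100 bases in its longest transcript, 37 also occur in transcripts of the neighbouring gene *Wdr55*.

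*Kit*, the receptor tyrosine kinase for the survival and migration signal KITL in PGCs, melanoblasts and blood progenitors, was lower in day 3 KO cells. At day 0 it had 83.5, 62.9 and 46.8 CPM in WT and 87.3, 80.3 and 60.1 CPM in KO, and at day 3 it had 70.6, 77.1 and 81.5 CPM in WT and 25.9, 39.7 and 33.6 CPM in KO. The other 3 groups overlapped one another, and all day 3 KO samples were below them. KO was 2.32-fold lower at day 3, a log2 fold change of -1.21 (SE 0.21, adjusted p = 0.00234 in edgeR). Summed blood and endothelial progenitor markers (all 7 detected in WT) were 46.0 to 391 CPM in WT and 9.61 to 12.5 CPM in KO. At day 0 they were 14.5 to 30.8 CPM in WT and 8.74 to 13.0 CPM in KO. *Gata1*, *Gata2* and *Cdh5* were below 1 CPM in every day 3 KO sample, but *Gata1* also in WT replicates 1 and 2 (0.56 and 0.337). *Gata1* and *Tal1* were not called (adjusted p = 0.0655 and 0.158 in edgeR). Without WT replicate 3, where those markers were highest, the *Kit* difference was -1.0 (adjusted p = 0.0127 in edgeR). WT replicates 1 and 2 still held 46.5 and 46.0 CPM of those markers. The part of blood progenitors in the *Kit* difference was not tested.

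The late germ cell genes went the other way. *Dazl*, a translational activator that licenses germ cells for sexual differentiation, had 16.9, 11.4 and 7.71 CPM in WT and 26.7, 29.9 and 21.6 CPM in KO at day 0, and 4.20, 2.21 and 1.67 CPM in WT and 6.30, 7.28 and 6.29 CPM in KO at day 3. No 2 of its 4 groups overlapped, in the order KO day 0, WT day 0, KO day 3 and WT day 3. At day 3 KO was 2.59-fold higher, a log2 fold change of 1.38 (SE 0.26, adjusted p = 0.00395 in edgeR). The day 0 value, given with no test, was 1.18 (SE 0.24).

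*Ddx4* (Vasa), a germ cell RNA helicase of the piRNA pathway, had 24.6, 27.8 and 21.4 CPM in WT and 31.7, 27.7 and 19 CPM in KO at day 0, and 10.4, 10.9 and 9.38 CPM in WT and 20.4, 22.6 and 17.4 CPM in KO at day 3. Day 3 WT cells were the low group, while day 3 KO cells overlapped ESCs. The log2 fold change at day 3 was 0.97 (SE 0.13, adjusted p = 0.000673 in edgeR), higher in KO in 3 of 3 replicate numbers and 1.96-fold in size. At day 0 it was 0.07 (SE 0.13), with no test. The calls of *Dppa3*, *Tfap2c*, *Kit*, *Dazl* and *Ddx4* at day 3 held in all 14 alternatives.

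**Figure D3:**
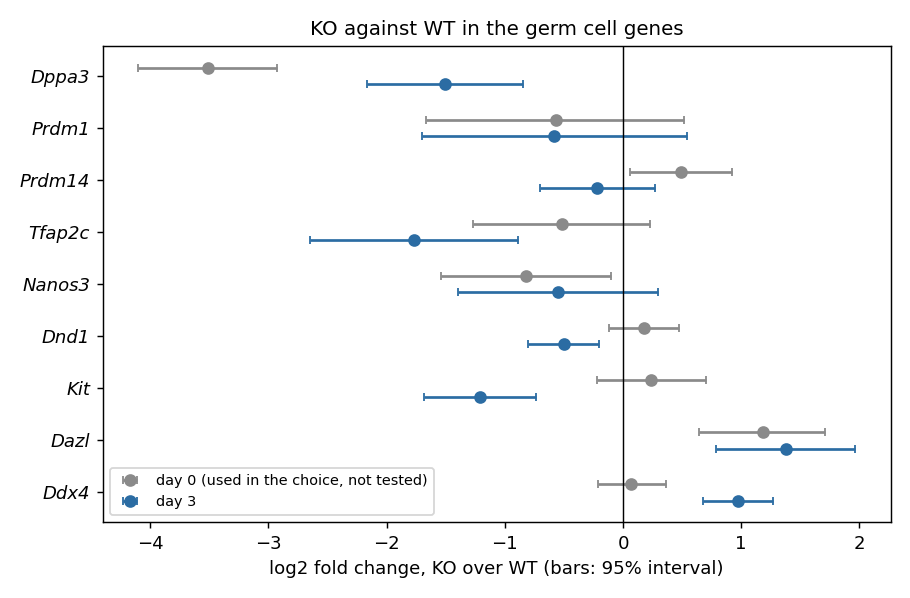
Log2 fold change of KO over WT (horizontal axis) for each germ cell gene (vertical axis) at day 0 (grey, not tested) and day 3 (blue), with 95% intervals from the fit. At day 3 *Dppa3*, *Tfap2c*, *Dnd1* and *Kit* lie below 0 and *Dazl* (1.38) and *Ddx4* (0.97) above it, and the intervals of *Prdm1*, *Prdm14* and *Nanos3* cross 0.

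In all, 4 of the 9 members were called lower and 2 higher in KO at day 3, where 16.7% of all tested genes were called lower and 14.3% higher. The lower members include *Dppa3*, whose low day 0 level in KO was the reason for the choice. They also include *Dnd1*, whose call was lost in 5 of 14 alternatives. The others were *Tfap2c* and *Kit*. All 9 passed the filter, *Nanos3* through 3 samples, *Dppa3* through 9 and the other 7 through all 12. From day 0 to day 3 in WT, 4 of the 7 members other than *Dppa3* and *Nanos3* were lower (*Prdm14*, *Tfap2c*, *Dazl* and *Ddx4*) and 0 higher, beside 25.5% of all genes lower and 30.7% higher. *Nanos3* is left out of this count, since it passed the filter only through WT day 0 samples, and its change in WT, -1.44 (SE 0.33) on the log2 scale, is a description. The largest of the 4 decreases was that of *Tfap2c*, -2.44 (SE 0.36, adjusted p = 0.00035 in edgeR) on the log2 scale. *Dazl* fell by 2.16 (SE 0.26, adjusted p = 0.00011 in edgeR) and *Ddx4* by 1.26 (SE 0.13, adjusted p = 4.53e-05 in edgeR). *Prdm1* was called lower as well when WT day 3 replicate 3 was left out, at -1.31 (adjusted p = 0.0371 in edgeR), and *Kit* was called higher without WT day 0 replicate 1, at 0.52 (adjusted p = 0.0474 in edgeR).

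In KO cells 6 of the same 7 members were lower at day 3 and 0 higher, beside 27.2% of all genes lower and 29.4% higher. The additional genes were *Kit* (-1.18, SE 0.21, adjusted p = 0.000904 in edgeR) and *Dnd1* (-0.51, SE 0.13, adjusted p = 0.00835 in edgeR), and *Tfap2c* again had the largest decrease, at -3.68 (SE 0.40, adjusted p = 3.85e-05 in edgeR). The *Ddx4* decrease in KO was small, at -0.36 (SE 0.13, adjusted p = 0.0353 in edgeR), and lost its call in 8 of 13 alternatives, with an adjusted p of up to 0.186 without KO day 0 replicate 1. *Nanos3*, not in the count, was at -1.17 in KO (SE 0.37, adjusted p = 0.0213 in edgeR) and lost its call in 7 of 12, with an adjusted p of up to 0.107 without KO day 3 replicate 3. The WT and KO changes over time share their samples with the comparisons of KO and WT, and the differences between the genotypes' changes were not tested.

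Between genes, levels were compared as CPM per kb of merged exons. Merged exons can be longer than any transcript, with 8911 bases for *Kit* against 5241 in its longest transcript. For *Ddx4* these were 3014 and 3012 bases, so the order of genes below depends on the length used. In WT ESCs *Dppa3* was highest at 22.4 ± 8.09 CPM per kb (SD, n = 3), followed by *Tfap2c* at 14.8 ± 5.34, *Ddx4* at 8.17 ± 1.06 and *Kit* at 7.23 ± 2.07, and *Nanos3* was lowest at 1.48 ± 0.457. In KO ESCs *Dppa3* was at 2.00 ± 0.990 CPM per kb, above *Nanos3* alone (0.830 ± 0.241), and the leading genes were *Tfap2c* (10.5 ± 5.49), *Ddx4* (8.68 ± 2.15) and *Kit* (8.52 ± 1.58), which did not differ beyond their spread. At day 3 *Kit* led in WT with 8.57 ± 0.612 CPM per kb, and *Ddx4* led in KO with 6.69 ± 0.864.

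The genes whose pattern was most like that of a member were named by Pearson's r of log2(CPM + 1) over the 12 samples, as a description. The 12 points share libraries and the difference between days, so r is high for many genes. *Calb2*, a calcium-binding protein gene, was most like *Dppa3* (r = 0.992), at means of 5.32 CPM in WT ESCs, 1.02 in KO ESCs, 1.12 in day 3 WT cells and 0.592 in day 3 KO cells. It was followed by *Myo3b* (0.96) and *Adgrg5* (0.956). For *Prdm14* the nearest genes were *Tfeb*, *Abca1* and *Cdyl2* (0.986 to 0.992), and for *Dazl* they were *Platr21*, *Tuba3a* and *Stk31* (0.988 to 0.991). *Stk31*, a testis kinase gene, belongs to the later germline genes below. *Ddx4* was nearest to *Fez1*, *Foxp1* and *Ubac1* (0.956 to 0.968), *Tfap2c* to *Rc3h2*, *Mok* and *Plk2* (0.969 to 0.976), and *Kit* to *Fam114a1*, *Acap2* and *Anpep* (0.928 to 0.935). *Prdm1* was nearest to *Garnl3*, the endothelial receptor gene *Tek* and *Frat2* (0.892 to 0.928), *Nanos3* to *Palm2*, *Map2k7* and *Esx1* (0.917 to 0.929), and *Dnd1* to *Hexim2* (0.938) and *Adam9* (0.925). Among the members themselves *Dazl* and *Ddx4* (r = 0.86), *Dnd1* and *Kit* (0.85) and *Prdm14* and *Tfap2c* (0.84) were the closest pairs.

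Of 11 ligands, receptors, transducers and targets of the BMP and WNT signals that induce PGCs, 6 were called lower and 0 higher in KO at day 3. That is 54.5% lower, beside 16.7% of all tested genes, with a median log2 fold change of -0.88 beside 0.00, and the other 5 were not called. *Bmp2*, a ligand of the posterior epiblast and extraembryonic tissue, had 8.53, 9 and 54.0 CPM in WT and 0.150, 0.569 and 0.250 CPM in KO, a log2 fold change of -5.91 (SE 0.62, adjusted p = 0.000202 in edgeR) that was -5.17 without WT replicate 3. *Wnt3*, which makes the epiblast responsive to BMP, had 65.7, 73.1 and 48.4 CPM in WT and 2.85, 1.36 and 2.91 CPM in KO, or -4.80 (SE 0.54, adjusted p = 0.000263 in edgeR).

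*T* (Brachyury), a mesoderm factor that acts on *Prdm1* and *Prdm14*, was at 692, 613 and 269 CPM in WT and 13.5, 1.31 and 4.12 CPM in KO at day 3, or -6.71 (SE 1.13, adjusted p = 0.002 in edgeR). The BMP transducer *Smad1* (-1.23, SE 0.11, adjusted p = 9.68e-05 in edgeR) and the receptor gene *Bmpr2* (-0.50, SE 0.07, adjusted p = 0.000955 in edgeR) were also lower, and *Smad5* (-0.24, adjusted p = 0.0433 in edgeR) lost its call in 8 of 14 alternatives. *Bmp4*, the main PGC-inducing ligand, had 4.34, 7.89 and 55.1 CPM in WT and 4.85, 4.78 and 5.12 CPM in KO at day 3, so only WT replicate 3 was above the KO range by a wide margin (adjusted p = 0.0559 in edgeR).

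At day 0, 3 of the 11 (27.3%) were lower and 1 (9.09%) higher, beside 10.9% and 9.56% of all tested genes. *Bmp4* was 5.59-fold higher in KO ESCs, with 83.8, 69.7 and 120.0 CPM against 13.3, 14.1 and 22.2 CPM, a log2 fold change of 2.48 (SE 0.54, adjusted p = 0.0107 in edgeR), which was 2.25 without WT replicate 3 (adjusted p = 0.0579). *Wnt3* (-3.59, SE 0.68, adjusted p = 0.00544 in edgeR) and *Bmpr2* (-0.39, SE 0.07, adjusted p = 0.005 in edgeR) were lower. *T* was lower by -5.49 (SE 1.43, adjusted p = 0.0234 in edgeR). Leaving out the third WT library made it -3.13 (adjusted p = 0.0639 in edgeR).

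Of 15 partners of the members 14 were tested, and at day 3 2 (14.3%) were lower and 4 (28.6%) higher in KO. The share of lower genes was near the 16.7% over all tested genes, and 14.3% of those were higher. *Kitl*, the gene of the KIT ligand, had 5.36, 4.04 and 34.9 CPM in WT and 2.15, 2.62 and 2.25 CPM in KO, a log2 fold change of -2.19 (SE 0.56, adjusted p = 0.0152 in edgeR) that was -1.14 without WT replicate 3 (adjusted p = 0.0183) and was not called without KO replicate 3 (adjusted p = 0.0953). *Cxcr4*, the receptor that guides migrating PGCs, was lower by -3.53 (SE 0.34, adjusted p = 0.000126 in edgeR), and *Cxcl12*, its ligand, was higher by 0.94 (SE 0.21, adjusted p = 0.00914 in edgeR). Mesoderm and endoderm are known to express *Cxcr4* as well. *Sox2*, a pluripotency and neural factor, was higher by 1.35 (SE 0.07, adjusted p = 3.6e-06 in edgeR), and *Cbfa2t2* (0.38), the corepressor partner of PRDM14, and *Uhrf1* (0.36), the maintenance methylation factor that DPPA3 restrains, were higher by small amounts that each lost their call without 1 KO library. At day 0 *Lin28b*, a blocker of let-7 maturation, was the 1 partner called lower (-0.95, SE 0.16, adjusted p = 0.003 in edgeR) and no partner was called higher. That is 7.14% lower, beside 10.9% of all tested genes.

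Of 4 genes that PRDM14 is known to repress, 2 were called lower at day 0 and 3 higher at day 3, and *Dnmt3a* and *Dnmt3b* were called in opposite directions at the 2 days. *Dnmt3a*, a de novo DNA methyltransferase, had 196, 338 and 263 CPM in WT and 118, 100 and 117 CPM in KO at day 0, and 258, 261 and 237 CPM in WT and 740.0, 811 and 745 CPM in KO at day 3. The log2 fold change was -1.23 (SE 0.15, adjusted p = 0.000769) at day 0 and 1.60 (SE 0.15, adjusted p = 0.000126) at day 3, both in edgeR. *Dnmt3b* was lower at day 0 (-0.80, SE 0.15, adjusted p = 0.00587) and higher at day 3 (0.94, SE 0.15, adjusted p = 0.00168), both in edgeR. *Ehmt1* (0.28 at day 3, adjusted p = 0.0273 in edgeR) lost its call in 6 of 14 alternatives, and *Dnmt3l*, the catalytically inactive cofactor, was called at neither day, at 0.64 (SE 0.27) and 0.66 (SE 0.28).

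Later germline genes were mostly higher in day 3 KO cells, the direction of *Dazl* and *Ddx4*. Of 33 tested genes, 18 were called higher and 1 lower (*Tdrkh*), which is 54.5% and 3.03% beside the 14.3% and 16.7% over all genes, with a median log2 fold change of 0.85. Both counts were the same without WT replicate 3, and they were 19 and 3 when the replicate block was set within days. The list was put together with earlier results of these libraries known, so its direction is no independent evidence. Higher levels in day 3 KO cells were not limited to germline genes. Of 12 naive pluripotency genes, 6 were called higher and 1 lower there, with a median log2 fold change of 0.41. The ESC markers summed to 1350 to 1430 CPM in KO and 660 to 1190 CPM in WT at day 3. Whether the germline genes moved apart from other genes expressed in ESCs was not tested.

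The largest differences were those of *Fkbp6*, a piRNA pathway co-chaperone (2.78, SE 0.41, adjusted p = 0.00104), *Rpl10l*, a testis copy of a ribosomal protein gene (1.91, SE 0.27, adjusted p = 0.000868), and *Stra8*, the retinoic acid target that starts meiosis (1.90, SE 0.43, adjusted p = 0.00924), all in edgeR. *Hormad1*, *Piwil4* and *Mov10l1* followed at 1.65 to 1.87. These levels were low, with *Fkbp6* at 1.21, 0.433 and 0.619 CPM in WT and 4.40, 6.99 and 4.54 CPM in KO, and *Stra8* at 0.513, 0.337 and 0.0953 CPM in WT and 1.40, 0.967 and 0.833 CPM in KO. Of these, *Stra8* lost its call without the replicate block (adjusted p = 0.19). *Rpl10l* has many near-identical relatives in the genome, so its count is uncertain.

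In ESCs the same list had 6 genes higher and 3 lower in KO, and a median of 0.24. That is 18.2% higher and 9.09% lower, beside 9.56% and 10.9% of all tested genes. The share of lower genes was near that over all genes. *Mael*, a transposon silencing factor, had 12.4, 9.29 and 5.44 CPM in WT and 34.6, 24.6 and 19.3 CPM in KO, a log2 fold change of 1.55 (SE 0.19, adjusted p = 0.000654 in edgeR). *Fkbp6* (2.11), *Majin* (1.48) and *Rpl10l* (1.33) were also higher, while the meiosis genes *Meioc* (-1.67, SE 0.26, adjusted p = 0.00219 in edgeR) and *Rec8* (-1.20, SE 0.29, adjusted p = 0.0154 in edgeR) were lower. *Majin* and *Rec8* each lost their call in some of the fits without 1 library. The count of higher genes depended on WT replicate 3, being 3 without it, and reached 10 when the replicate block was set within days.

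**Figure D4:**
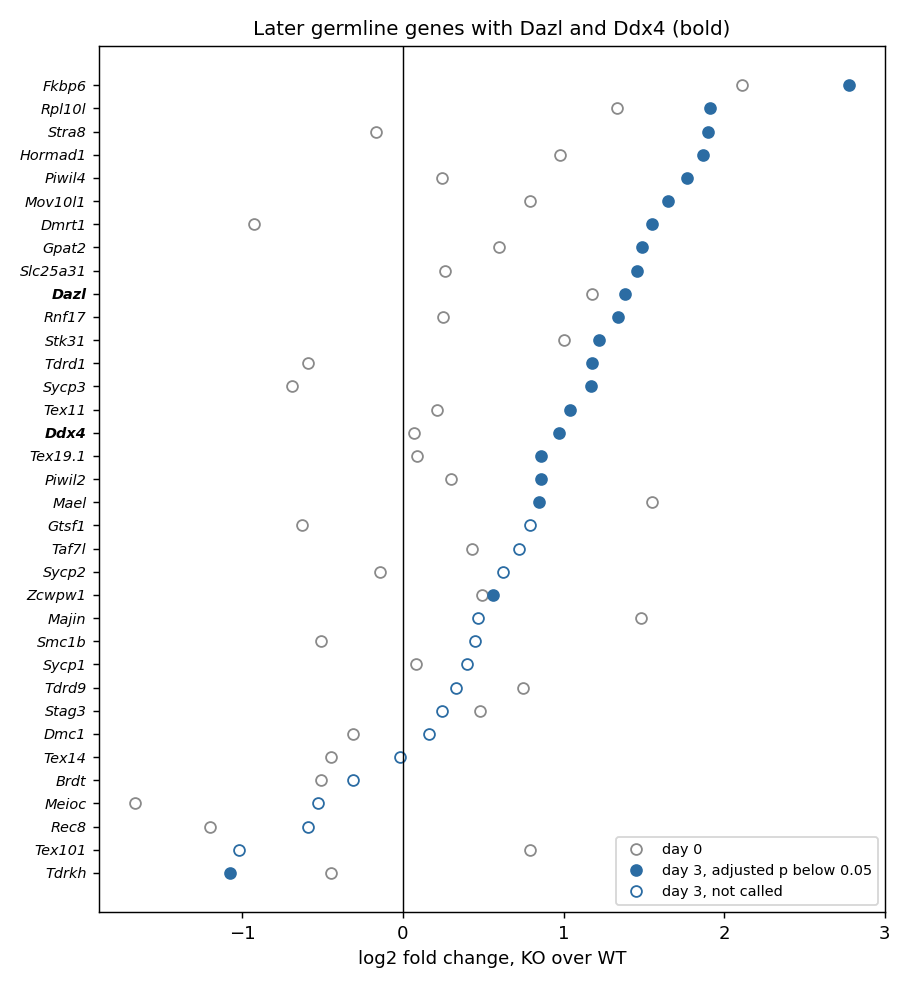
Log2 fold change of KO over WT (horizontal axis) at day 0 (grey) and day 3 (blue, filled where called) for 33 later germline genes and for *Dazl* and *Ddx4* in bold (vertical axis, ordered by day 3). At day 3, 27 of the 33 later germline genes lie above 0, from *Tdrkh* at -1.08 to *Fkbp6* at 2.78, and the day 0 points spread to both sides.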

How the data were processed

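Values deposited by the authors were read counts per gene, not normalized. The submitters' processing notes and the paper name Cutadapt 1.3, STAR 2.4.2a and htseq-count (HTSeq 0.6.1) on GRCm38 with Ensembl annotation, for single reads of polyadenylated RNA. Reads with several alignments were not counted and made up 36.52% to 44.09% of the alignments the files account for.

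Symbols and exon lengths came from GENCODE M21 (GRCm38), which held 46005 of the 46517 genes. Genes above 1 CPM in at least 1 sample (15673) entered the quasi-likelihood test of edgeR 4.0.16 (R 4.3.3). Libraries were normalized by TMM, and the model held the 4 groups and a block for the replicate number, since the study's methods add a batch factor. All 12 samples entered 1 fit. Benjamini-Hochberg adjustment ran over all tested genes, and genes were called below 0.05 with no fold change minimum. Standard errors were the log2 fold change divided by the root of edgeR's F, and 95% intervals used its degrees of freedom. Values with ± are means and SD over 3 replicates.

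Replicate numbers paired the samples within a day, by the numbers in the labels. Deviations from group means correlated at 0.318 to 0.677 over 6 pairs of WT and KO samples with the same day and number (12659 genes), and at a mean of -0.0518 between days. The block of the main fit assumes 1 replicate effect shared by both days, which these values do not show. Genes not called in the main fit can therefore be called with the block set within each day, which is given among the alternatives. No 2 replicates held the same counts within sampling noise.

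The members and all gene lists were chosen with earlier results of these data known. Named are all members, at most 6 called genes per list and day by size of change, the genes of the *Dppa3* cluster and the 3 genes most like each member, of which 1 is not reported here. Other genes were named after their values were seen, namely some naive pluripotency and *Dppa* genes, *Smad5*, *Cbfa2t2*, *Uhrf1*, *Dnmt3l*, *Stk31*, *Tdrkh*, *Dmrt1*, *Tdrd1* and *Sycp3*. The steps were tested on simulated data. As alternatives, the model had no replicate block or a block within each day, and others used DESeq2 1.42.0, limma-voom (limma 3.58.1), RLE normalization, no filter, at least 10 counts in every sample, only the 6 samples compared and each of the 12 libraries left out.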

Additional observations from a re-analysis of the deposited data

Results flagged for a closer look

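Among the members, 3 had a KO over WT difference of opposite sign at the 2 days, with every replicate number on 1 side at day 0 and on the other at day 3. The difference between the days was not tested. As the day 3 log2 fold change minus that at day 0 it was -1.45 for *Kit* (0.24 at day 0, -1.21 at day 3), -0.70 for *Prdm14* (0.49 and -0.22) and -0.67 for *Dnd1* (0.18 and -0.50). For *Prdm14* the day 3 value was not called, and it was 0.02 without WT day 3 replicate 3.

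Among the genes named above from the pathway lists, the same opposite signs were seen in *Dnmt3a* (2.83, from -1.23 to 1.60), *Dnmt3b* (1.74, from -0.80 to 0.94) and *Cxcl12* (1.68, from -0.74 to 0.94). *Sox2* (1.43, from -0.09 to 1.35) and *Smad5* (-0.39, from 0.15 to -0.24) had them too, again without a test of the difference. Some later germline genes not named above also had opposite signs, among them *Dmrt1* (-0.93 at day 0 and 1.55 at day 3), *Tdrd1* (-0.59 and 1.18) and *Sycp3* (-0.69 and 1.17). Of the genes in this paragraph, *Dnmt3a*, *Dnmt3b* and *Dmrt1* were called at both days by edgeR.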

How the results depend on the processing

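For the members at day 3, the numbers of lower calls (4 in the main fit) and of higher calls (2) stayed within 1.5 times under each alternative. The call of *Dnd1* was lost in 5 of 14 alternatives, and the other calls held in all 14. The replicate block within each day changed no member call at day 3. Without any replicate block, the changes over time in KO of *Ddx4* (adjusted p = 0.101 in edgeR) and *Nanos3* (0.0528) were not called. Leaving out each library in turn moved the log2 fold change of *Prdm1* at day 3 between -0.95 and 0.20 (the latter without WT day 3 replicate 3), that of *Prdm14* between -0.32 and 0.02, and the *Prdm1* change over time in KO between -0.96 and 0.05 (the latter without KO day 0 replicate 1). Members called higher at day 3 in WT numbered 0 to 1. With the replicate block within each day, the 4 pathway lists together had 14 genes lower and 11 higher at day 0 (9 and 7 in the shared block), and the later germline genes had 5 lower and 10 higher at day 0 and 3 lower at day 3. With only the 6 samples compared, the lists had 15 lower and 14 higher at day 0, and the later germline genes had 5 lower and 10 higher at day 0 and 3 lower at day 3. Without 1 library each, later germline genes at day 0 ranged from 2 to 5 lower and from 3 to 8 higher, and the lists together from 3 to 9 higher, with the lowest counts of higher genes without WT day 0 replicate 3. The causes were not tested. At about 20 reads per CPM, day 3 values rested on 4 to 16 counts per library for *Nanos3* and 10 to 58 for *Dppa3*.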
